A study of Mus musculus with 3 samples.

Results

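The genes of the mouse major histocompatibility complex (MHC) and of its peptide-loading machinery were followed in the mouse heart under esmolol, an infused beta-1 adrenergic receptor blocker of brief action. Members were all probes annotated to exactly 1 gene whose symbol begins with H2-, together with B2m, Tap1, Tap2, Tapbp, Cd74, Ciita and Nlrc5. This gave 71 probes of 45 genes, out of 19532 named genes on the array. Of these, 32 belong to MHC class I, 12 to class II, and 1, H2-Ke6, lies in the complex but encodes a hydroxysteroid dehydrogenase (its other symbol is Hsd17b8) and was kept out of both classes.

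Hearts came from C57BL/6 mice, described as 6 groups of 8 animals. The groups were untreated mice without sepsis, esmolol without sepsis, lipopolysaccharide (LPS) given into the peritoneum with or without esmolol, and cecal ligature and perforation (CLP), a surgical abdominal sepsis, with or without esmolol. Esmolol was infused at 20 mg/kg/h through a catheter in the right jugular vein. The sources used here give no age, sex, LPS dose or time of sampling. The arrays set esmolol hearts against the matching untreated hearts, so sepsis itself was not compared with its absence. The 3 contrasts therefore use different untreated hearts and share none.

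Each contrast is 1 merged ratio per probe from 4 replicates with dye swaps, and no error between animals or hybridizations can be given. No difference was tested. Values were read as log2 ratios, above 0 meaning higher with esmolol, and a gene's value is the median of its probes. Errors below are SDs between probes of 1 gene. Pooled over all genes with several probes, that SD was 0.11 without sepsis, 0.24 in LPS and 0.10 in CLP hearts, on the log2 scale. The labels list both dyes for both channels, so direction rests on the order in the sample titles. For CLP the title puts untreated hearts ahead of treated ones, and the series' design text has the reverse. The CLP sign was turned to follow the title, and every CLP direction below reverses if the values do not follow it.

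In each column 1 exact value recurred far more often than any other, at 359, 526 and 538 probes without sepsis, in LPS and in CLP hearts, where the next most frequent value occurred at 25, 15 and 26. It fell on probes of 3, 5 and 5 of 7 heart muscle marker genes, Myh6 and Mybpc3 among them in each column, and no ratio can be read from it. Because the table holds ratios and no levels, the tissue could not be checked further against its markers. No member probe held the recurring value without sepsis, 15 of 62 measured member probes did so in LPS hearts and 1 of 59 in CLP hearts. All of them were class I probes.

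MHC class I molecules present peptides made inside the cell to CD8 T cells. A polymorphic heavy chain pairs with beta-2 microglobulin, the TAP transporter pumps peptides from the cytosol into the endoplasmic reticulum, and tapasin holds the empty molecule at the transporter. Class II molecules present peptides taken up from outside to CD4 T cells. Their alpha and beta chains assemble on the invariant chain, and the DM molecule later exchanges its remnant for peptide, held in check by DO. Interferon-gamma induces both classes, class I through NLRC5 and class II through CIITA, which act on a shared promoter module of S, X and Y boxes. In the heart, class II is known mainly from macrophages and dendritic cells, while class I is carried by nearly all nucleated cells.

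The start regions of 7 members are printed. Each holds letters of the Y box or of an element that answers interferon or NF-kB, the known control points of these genes. The region of Tapbp, which holds none of the letters searched, is not printed. The printed regions run from 250 bases before to 50 bases after the annotated start, 5′ to 3′ along the gene, from RefSeq on GRCm38.p6. Capitals mark matches, on either strand, to the Y box (CTGATTGG), the X2 box (TGACGTCA), a kappa B element (GGGATTCCC), the interferon-stimulated response element (GAAANNGAA) or the gamma-activated site (TTCNNNGAA).
H2-K1 (chr17:34000284-34000583, - strand): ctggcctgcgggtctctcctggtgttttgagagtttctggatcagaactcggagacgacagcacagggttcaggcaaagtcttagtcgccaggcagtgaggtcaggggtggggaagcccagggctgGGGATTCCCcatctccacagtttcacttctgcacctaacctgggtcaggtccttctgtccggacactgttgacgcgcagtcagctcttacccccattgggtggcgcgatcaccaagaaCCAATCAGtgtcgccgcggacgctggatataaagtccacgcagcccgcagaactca
H2-D1 (chr17:35262844-35263143, + strand): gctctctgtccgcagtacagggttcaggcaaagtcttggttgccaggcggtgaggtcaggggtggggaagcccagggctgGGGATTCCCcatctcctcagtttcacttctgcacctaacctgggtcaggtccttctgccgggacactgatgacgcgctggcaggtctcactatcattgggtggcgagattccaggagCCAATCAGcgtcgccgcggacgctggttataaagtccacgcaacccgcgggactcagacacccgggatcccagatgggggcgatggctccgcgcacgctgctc
B2m (chr2:122147437-122147736, + strand): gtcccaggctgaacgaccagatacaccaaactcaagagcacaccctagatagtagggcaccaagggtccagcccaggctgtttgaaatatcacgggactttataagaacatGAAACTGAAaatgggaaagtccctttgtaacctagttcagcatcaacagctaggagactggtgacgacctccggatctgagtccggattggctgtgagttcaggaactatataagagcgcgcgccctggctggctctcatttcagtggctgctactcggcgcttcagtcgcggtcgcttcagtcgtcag
H2-T22 (chr17:36042693-36042992, - strand): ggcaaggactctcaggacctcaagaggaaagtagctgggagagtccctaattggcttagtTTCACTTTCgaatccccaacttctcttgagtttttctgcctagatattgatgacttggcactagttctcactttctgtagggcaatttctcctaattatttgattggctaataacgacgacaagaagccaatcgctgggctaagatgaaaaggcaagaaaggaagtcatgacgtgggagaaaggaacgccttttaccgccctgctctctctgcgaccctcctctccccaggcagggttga
H2-Aa (chr17:34287774-34288073, - strand): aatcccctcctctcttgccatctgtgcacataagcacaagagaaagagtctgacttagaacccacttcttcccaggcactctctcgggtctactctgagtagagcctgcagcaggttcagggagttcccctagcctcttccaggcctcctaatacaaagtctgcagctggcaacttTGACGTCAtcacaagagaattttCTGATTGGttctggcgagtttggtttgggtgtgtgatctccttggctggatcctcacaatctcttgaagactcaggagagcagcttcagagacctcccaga
H2-Eb1 (chr17:34305617-34305916, + strand): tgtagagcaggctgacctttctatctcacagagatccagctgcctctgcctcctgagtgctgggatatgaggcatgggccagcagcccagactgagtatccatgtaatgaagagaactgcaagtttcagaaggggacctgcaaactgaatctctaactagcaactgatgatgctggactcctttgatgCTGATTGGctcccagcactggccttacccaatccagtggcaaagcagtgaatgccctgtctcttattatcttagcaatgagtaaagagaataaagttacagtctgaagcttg
H2-Eb2 (chr17:34325425-34325724, + strand): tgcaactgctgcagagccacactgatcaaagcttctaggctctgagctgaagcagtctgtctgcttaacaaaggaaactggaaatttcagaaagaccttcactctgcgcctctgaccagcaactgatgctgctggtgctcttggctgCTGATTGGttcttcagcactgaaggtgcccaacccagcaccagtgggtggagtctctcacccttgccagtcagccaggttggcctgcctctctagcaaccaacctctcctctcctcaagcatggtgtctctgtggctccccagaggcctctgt

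Of the 45 members, 32 had such a region in the reference table. The Y box letters occurred in 17 of these 32, against 4.10% of all 32851 regions of the same length. The members are duplicated genes that share sequence, so these are not separate observations. Members were counted by gene (35 regions for the 32), while the shares are of regions. The motifs were settled after the start regions had been searched, so no share here tests an excess among members. The kappa B letters occurred in H2-K1, H2-D1 and H2-Q7, against 0.353% of all regions. In the region printed for H2-K1, 1 of 2 overlapping ones in the table, they began 124 bases before the start, and in H2-D1 170 bases before it. The interferon-stimulated letters were found in B2m, H2-T22 and H2-T23, against 8.56% of all regions. The X2 letters were found in H2-Aa alone among the members (1.79% of all regions), beginning 74 bases before its start, with its Y box beginning 51 bases before it. The gamma-activated letters were found in H2-DMb2, H2-M11 and H2-M3, against 8.30% of all regions. No pair of these matches overlapped in the members' regions. A match is a description of letters and not a shown binding site. Only these exact letters were searched. A region without a match, such as H2-K1 and H2-D1 for the interferon-stimulated letters, was not shown to lack the element.

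Class I genes with a readable ratio lay below 0 in LPS hearts, and class I genes lay mostly above 0 in CLP hearts. In LPS hearts 26 of 26 class I genes had a value below 0, against 49.97% of all genes. Their median was -0.10 where that of all genes was 0.0001. In 7 of the 26 every probe held the recurring value, so no LPS ratio can be read for them. Without the recurring value 19 of 19 lay below 0, with a median of -0.30. In CLP hearts 20 of 25 lay above 0, against 47.86% of all genes, with a median of 0.16 beside -0.0049 for all genes. In non-septic hearts 20 of 25 lay below 0, against 49.51% of all genes, with a median of -0.03 and a range of -0.14 to 0.18. The heavy chain genes are near-identical copies, so these counts are not of separate observations.

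In LPS hearts 5 class I genes were at least 1.5-fold lower (0.585 on the log2 scale) and none higher by as much, where 2.26% of all genes were lower and 2.06% higher by as much. At 1.2-fold (0.263), 8 were lower and none higher, where the share of all genes was 14.4% lower and 15.4% higher. Without the recurring value 11 of 19 class I genes were lower by 1.2-fold and none higher, beside 14.6% and 15.7% of all genes, where 8 of 26 were lower with it. In CLP hearts no class I gene passed 1.5-fold in either direction, where 0.819% of all genes were higher and 0.133% lower. At such shares that says little about 25 genes. At 1.2-fold 5 were higher there and none lower, where 3.92% of all genes were higher and 2.06% lower. Without sepsis no member of either class reached 1.2-fold, which 2.91% of all genes did downward and 2.33% upward. That too says little about so few genes.

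**Figure D1:**
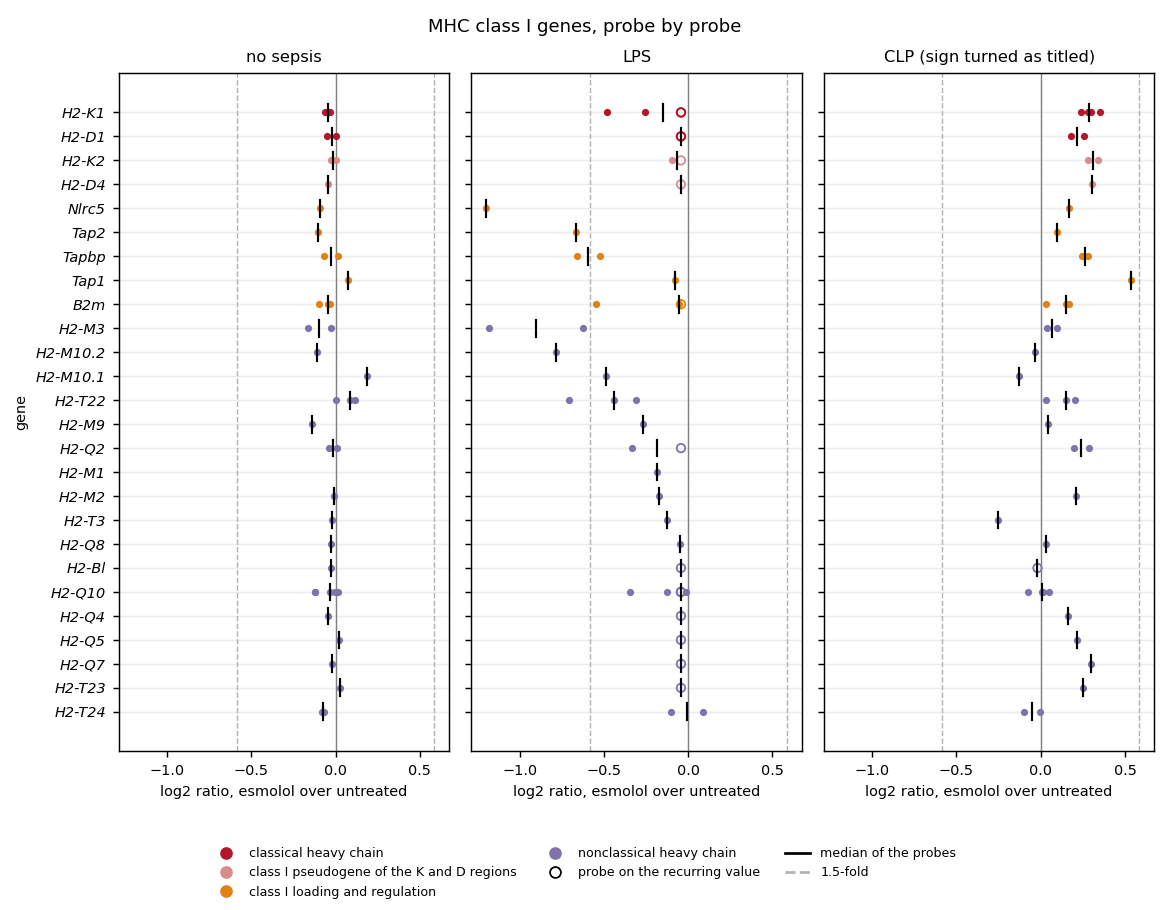
Log2 ratio of esmolol over untreated hearts (horizontal axis) for each probe of the 26 class I genes with a value, in the 3 contrasts; points are probes, open circles probes on the recurring value, vertical bars the median per gene, dashed lines 1.5-fold. The LPS panel spreads to the left down to Nlrc5 at -1.20, with a column of open circles at -0.04, while H2-K1, H2-D1 and their pseudogenes lie between 0.18 and 0.35 in the CLP panel.

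Nlrc5, the transactivator of class I genes, had the lowest ratio of all members in LPS hearts. It was at -0.09 without sepsis, -1.20 in LPS and 0.17 in CLP hearts, on 1 probe. The LPS value is 2.29-fold lower with esmolol and ranked 42 from the lowest among 17733 genes. In CLP hearts its ratio was higher than that of 91.9% of genes.

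The transporter subunits Tap1 and Tap2 did not share their extremes. Tap2 was at -0.10, -0.66 and 0.09 without sepsis, in LPS and in CLP hearts, and its LPS ratio (1.58-fold lower) ranked 283 from the lowest. Tap1 was at 0.08, -0.08 and 0.53, and its CLP ratio (1.45-fold higher), the highest of any member there, ranked 173 from the highest of 17339 genes. Each rests on 1 probe. In LPS hearts Tap1 was thus higher than 35.2% of all genes, and Tap2 higher than 1.59%.

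Both genes lie on chromosome 17 in the order Psmb9, Tap1, Psmb8, Tap2, interleaved with subunits of the immunoproteasome, the protease form that trims peptides for class I. In that order the LPS ratios were -0.28, -0.08, -1.01 and -0.66, and the CLP ratios 0.01, 0.53, 0.29 and 0.09. Psmb8 was measured by 2 probes (-1.01 ± 0.17, SD between probes, in LPS hearts).

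Tapbp, which encodes tapasin, was at -0.03 ± 0.06 without sepsis, -0.59 ± 0.10 in LPS and 0.26 ± 0.02 in CLP hearts (SD between probes, n = 2 probes). Its probes in LPS hearts read -0.66 and -0.52, and in CLP hearts 0.25 and 0.28. Both probes thus lay on the same side of 0 in each septic contrast, on either side of 0 without sepsis. The LPS ratio was 1.51-fold lower and ranked 391 from the lowest.

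B2m, the light chain of all classical class I molecules, shows what the recurring value does. Its 3 probes read -0.10, -0.04 and -0.03 without sepsis and 0.03, 0.15 and 0.17 in CLP hearts. In LPS hearts they read -0.55, -0.06 and -0.04, the last being the recurring value. The gene's median moves from -0.06 to -0.30 without that probe.

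The classical heavy chains were touched by it too. H2-K1 had 4 probes, between -0.07 and -0.03 without sepsis and between 0.24 and 0.35 in CLP hearts. In LPS hearts 2 of them held the recurring value and the other two read -0.48 and -0.25, so its median was -0.15 with them and -0.37 without. H2-D1 had 2 probes, at -0.05 and 0.004 without sepsis and at 0.18 and 0.26 in CLP hearts. In LPS hearts both held the recurring value, so no LPS ratio can be given for H2-D1.

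In CLP hearts the H2-K1 ratio (0.29 ± 0.05, SD between probes, n = 4 probes, 1.22-fold higher) was above that of 96.7% of genes. H2-D1 (0.22 ± 0.06, n = 2 probes, 1.16-fold higher) was above 94.6%. The transcribed pseudogenes H2-K2 (0.31 ± 0.04, n = 2 probes) and H2-D4 (0.30, 1 probe) had ratios of the same size. Without sepsis these pseudogenes were at -0.01 and -0.04. Class I heavy chain genes are near-identical copies, and which copies a probe reads was not tested, so their values are not independent of each other.

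Nonclassical heavy chains, which include ligands of innate-like T and NK cells, were measured for 17 of 23 genes in LPS hearts and for 16 in each of the other contrasts. In LPS hearts all 17 had a ratio below 0, against 49.97% of all genes. Among them were 5 (H2-Bl, H2-Q4, H2-Q5, H2-Q7 and H2-T23) whose every probe held the recurring value. Without those probes the median of the remaining 12 was -0.23. In CLP hearts 11 of 16 lay above 0, against 47.86% of all genes, with a median of 0.06.

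H2-M3, which presents formylated bacterial peptides, was the lowest of them in LPS hearts. It was at -0.10 ± 0.10 without sepsis, -0.91 ± 0.39 in LPS and 0.07 ± 0.04 in CLP hearts (SD between probes, n = 2 probes). Its LPS probes read -1.18 and -0.63, both past 1.5-fold, and the gene ranked 100 from the lowest. In CLP hearts it lay within the pooled SD between probes of 0.

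H2-M10.2 (-0.79) and H2-M10.1 (-0.49) followed in LPS hearts, each on 1 probe. The H2-M10 family is known from sensory neurons of the vomeronasal organ in the mouse, and 4 of its 6 members on the array (H2-M10.3 to H2-M10.6) had no value in any contrast. H2-M10.1 was also the highest nonclassical gene without sepsis (0.18) and lay at -0.13 in CLP hearts. Its sign thus differed between the non-septic contrast and both septic ones.

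H2-T22, a ligand of gamma-delta T cells, had 3 probes at -0.71, -0.44 and -0.31 in LPS hearts and at 0.03, 0.15 and 0.20 in CLP hearts. Without sepsis they read 0.003, 0.08 and 0.12. All 3 probes lay below 0 in LPS and above 0 in CLP hearts. The LPS median of -0.44 (1.36-fold lower) was under 1.5-fold.

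In CLP hearts the highest nonclassical genes were H2-Q7 (0.30), which encodes a Qa-2 molecule, H2-T23 (0.25), which encodes the Qa-1 ligand of NKG2A, and H2-Q2 (0.24). The former pair was at -0.02 and 0.02 without sepsis and had no readable LPS ratio. H2-Q2 was at -0.02 without sepsis and -0.19 in LPS hearts, where 1 of its 2 probes held the recurring value and the other read -0.33. The lowest in CLP hearts were H2-T3 (-0.25), which encodes the thymus leukaemia antigen, H2-M10.1 (-0.13) and H2-T24 (-0.05). Without sepsis the lowest were H2-M9 (-0.14), H2-M10.2 (-0.11) and H2-M3, and the highest after H2-M10.1 were H2-T22 (0.08) and H2-T23.

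H2-Q4 (0.16) and the transcribed pseudogene H2-Q5 (0.22) also lay above 0 in CLP hearts and were at -0.05 and 0.02 without sepsis. H2-Q10, which encodes a secreted liver class I chain, had medians of -0.03, -0.04 and 0.01 over up to 5 probes. In LPS hearts 2 of these held the recurring value, and the median without them was -0.12. H2-M2 was at -0.01, -0.17 and 0.21, and its CLP ratio was above that of 94.3% of genes. H2-M9 was at -0.27 in LPS and 0.05 in CLP hearts, H2-Q8 at -0.03, -0.05 and 0.03, and H2-M1, measured in LPS hearts alone, at -0.18. H2-M11 and H2-Q1 had no value.

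Class II genes were spread over both sides of 0 in every contrast. In LPS hearts 7 of 11 measured genes lay below 0, against 49.97% of all genes, with a median of -0.09. In CLP hearts 7 of 10 lay above 0, against 47.86% of all genes, with a median of 0.066. Without sepsis 6 of 10 lay below 0, against 49.51% of all genes, with a median of -0.03. With so few genes these counts say little beside the shares of all genes. No class II gene passed 1.5-fold in any contrast. Between 0.133% (lower in CLP hearts) and 2.26% (lower in LPS hearts) of all genes did so per contrast and direction. At such shares that says little about 11 genes. At 1.2-fold 4 were lower and 1 higher in LPS hearts, where 14.4% of all genes were lower and 15.4% higher. In CLP hearts 2 were higher by as much and none lower, where 3.92% of all genes were higher and 2.06% lower.

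The chains of the I-A molecule, the one class II molecule that C57BL/6 mice put on the cell surface, were the lowest class II genes in LPS hearts. H2-Aa, its alpha chain, read -0.26 and -0.15 at its 2 probes without sepsis, -0.69 and -0.36 in LPS and 0.45 and 0.55 in CLP hearts. All its probes were below 0 without sepsis and in LPS hearts and above 0 in CLP hearts. The medians were -0.20, -0.52 (1.43-fold lower, rank 571 from the lowest) and 0.50 (1.42-fold higher, rank 199 from the highest). Without sepsis it was the lowest member of either class, and 5.24% of all genes were lower.

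H2-Ab1, the I-A beta chain, had 4 probes below 0 in LPS hearts, from -0.52 to -0.18, with a median of -0.34 ± 0.14 (SD between probes). Without sepsis they ran from -0.20 to -0.05. In CLP hearts 3 probes read 0.02, 0.08 and 0.09 and the remaining one 0.65. The median of 0.09 and the mean of 0.21 therefore describe the gene differently, and the reason for the split was not tested.

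H2-Eb1, the I-E beta chain, was at -0.12, -0.28 and 0.21 without sepsis, in LPS and in CLP hearts, on 1 probe. Its partner H2-Ea is listed by RefSeq as a transcribed pseudogene and is not functional in this strain. Its 1 probe had a value in LPS hearts alone (-0.05). H2-Eb2, a less studied beta chain gene beside H2-Eb1, ran the other way at both of its probes: 0.10 and 0.12 without sepsis, 0.18 and 0.31 in LPS hearts, and -0.07 for each in CLP hearts. The Y box letters are in the start regions of both H2-Eb1 and H2-Eb2, as printed above.

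Cd74, the invariant chain on which class II molecules assemble, was at -0.05, -0.12 and 0.41 on 1 probe. Its CLP ratio (1.33-fold higher) ranked 294 from the highest, after H2-Aa the second highest of the class. Ciita, the class II transactivator, was at -0.07, 0.15 and 0.15 on 1 probe. In LPS hearts Ciita thus lay above 0 while H2-Aa, H2-Ab1 and H2-Eb1 lay below it. The LPS ratio of Ciita was smaller than the pooled SD between probes (0.24). H2-DMa, H2-Eb2 and H2-Oa lay above 0 in LPS hearts as well.

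Of the peptide exchange genes, H2-DMa, the DM alpha chain, had the highest ratio of any member in LPS hearts. It was at 0.05, 0.52 (1.44-fold higher, rank 551 from the highest) and 0.004, on 1 probe. Neither DM beta chain gene reached such a ratio in LPS hearts. H2-DMb1 was at -0.01 and 0.04 without sepsis and in CLP hearts, and its LPS probes lay at -0.32 and 0.14, on both sides of 0. H2-DMb2 was at 0.16, -0.30 and -0.24, on 1 probe.

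H2-Oa, the alpha chain of DO, was at 0.05 ± 0.03 without sepsis, 0.21 ± 0.18 in LPS and -0.17 ± 0.15 in CLP hearts (SD between probes, n = 2 probes). Its probes lay on 1 side of 0 in each contrast. Both probes of its partner H2-Ob had no value. H2-Ke6, outside both classes, was at 0.06, -0.41 and -0.08, on 1 probe. In LPS hearts it was thus lower by more than 1.2-fold, as were 14.4% of all genes.

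**Figure D2:**
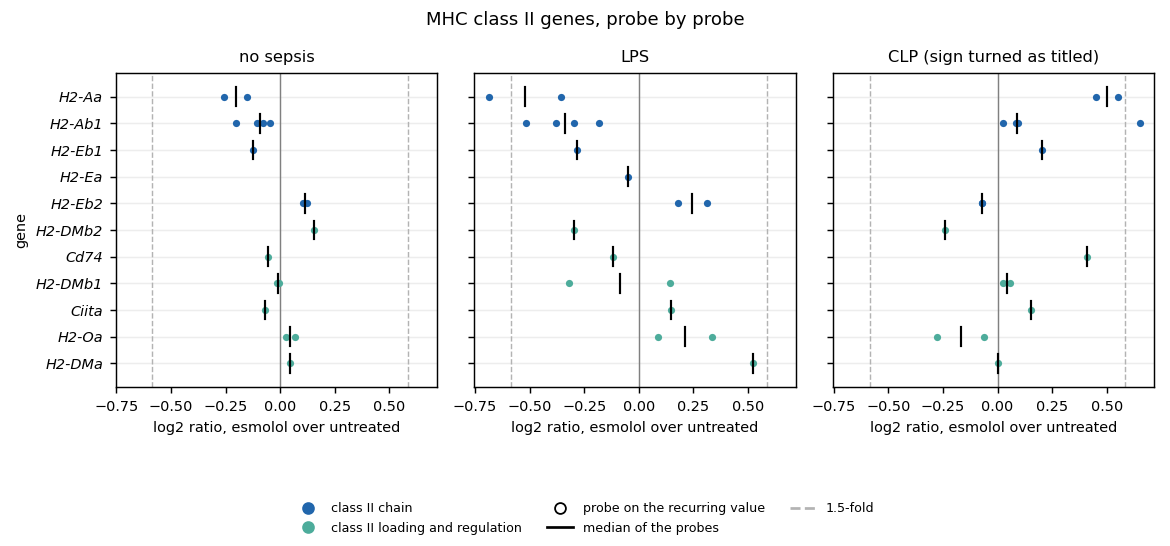
Log2 ratio of esmolol over untreated hearts (horizontal axis) for each probe of the 11 class II genes with a value, in the 3 contrasts; points are probes, vertical bars the median per gene, dashed lines 1.5-fold. H2-Aa stands at -0.52 in the LPS panel and at 0.50 in the CLP panel, H2-Eb2 and H2-Oa have the opposite order, and H2-DMa stands at 0.52 in LPS hearts.

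LPS and CLP hearts were set side by side for the 36 members measured in both. Of these, 25 (69.4%) lay below 0 in LPS and above 0 in CLP hearts, as did 24.9% of all 17089 genes measured in both. The count was 20 of 25 in class I and 5 of 10 in class II. Without the recurring value it was 14 of 18 in class I and 5 of 10 in class II. H2-Eb2 and H2-Oa alone lay above 0 in LPS and below 0 in CLP hearts, and H2-DMa and Ciita above 0 in both. If the CLP sign were not turned, the 25 genes would lie below 0 in both contrasts.

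**Figure D3:**
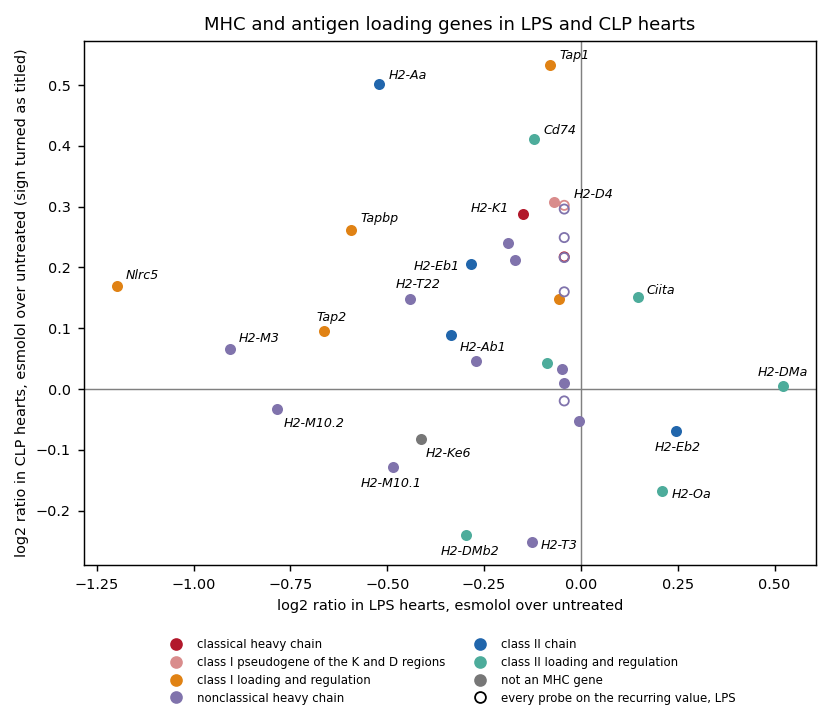
Log2 ratio in LPS hearts (horizontal axis) against the log2 ratio in CLP hearts (vertical axis), esmolol over untreated, for the 36 members measured in both; colours give the role, and open circles are genes whose every LPS probe held the recurring value. The upper left part, below 0 in LPS and above 0 in CLP hearts, holds 25 genes, from Nlrc5 at -1.20 to the heavy chains near 0, and H2-DMa lies far to the right at 0.52.

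Genes that supply and load peptides for class I, beyond the members, showed lower ratios in LPS hearts for a few genes. Of 10 measured, 3 were at least 1.5-fold lower and 0 at least 1.5-fold higher, with a median of -0.18, where 2.26% of all genes were lower and 2.06% higher by as much. These were Psmb8, the tapasin-related editor Tapbpl (-0.68, 1 probe) and the trimming peptidase Erap1 (-0.65 ± 0.02, n = 2 probes). The chaperone Calr (0.21 ± 0.04, n = 2 probes) was the highest. In CLP hearts the median was 0.06 with Psmb8 highest and the disulfide isomerase Pdia3 lowest (-0.11). Pdia3 was also lowest without sepsis (-0.36), where Tapbpl was highest (0.12) and the median was -0.02.

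Regulators between interferon-gamma and the MHC had 3 of 9 measured genes lower by 1.5-fold or more in LPS hearts, where 2.26% of all genes were. In CLP hearts 1, Socs1, was higher by 1.5-fold or more, where 0.819% of all genes were. Socs1, the feedback inhibitor of the interferon receptors, was at -0.06, -1.62 and 0.60 without sepsis, in LPS and in CLP hearts, on 1 probe. Irf1, which activates class I genes and Ciita, was at -0.92 in LPS hearts, with an SD of 1.07 between its 3 probes. Irf8, a myeloid interferon regulatory factor, was at -0.78 ± 0.08 (n = 2 probes). Ifng itself was at -0.25 ± 0.07 (n = 2 probes) in LPS hearts. The list's medians were -0.01, -0.25 and 0.14. Its extremes were Irf1 (-0.16) and Jak2 (0.20) without sepsis, Irf2 (0.05) at the upper end in LPS hearts, and Ifngr1 (-0.10) at the lower end in CLP hearts.

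The DNA-bound factors of the shared promoter module and the lysosomal genes of class II processing had medians near 0. In LPS and CLP hearts these were nearer 0 than those of the preceding pathway lists. The 7 module factors had medians of -0.05, -0.01 and -0.01. None passed 1.5-fold, where between 0.133% and 2.26% of all genes did so per contrast and direction. At such shares that says little about 7 genes. Nfyb (-0.18 in both) was lowest without sepsis and in LPS hearts, Rfxank (-0.02) and Creb1 (0.44) were highest there, and Creb1 (-0.17) and Rfxank (0.26) were the extremes in CLP hearts. The 8 processing genes had medians of 0.04, -0.05 and 0.02. None reached 1.2-fold in any contrast, where between 2.06% and 15.4% of all genes did so per contrast and direction. At the lower of these shares that says little about 8 genes. Their extremes were Ctsb (0.002) and the class II ubiquitin ligase gene Marchf1 (0.16) without sepsis, the protease gene Lgmn (-0.24) and Ctsd (-0.004) in LPS hearts, and Ctsl (-0.22) and Marchf1 (0.22) in CLP hearts.

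Macrophage markers lay above 0 at 8 of 9 measured genes in LPS hearts, against 50.01% of all genes. The marker median there was 0.54, from Fcgr1 (-0.14) to Cd163 (0.89). Of the class II genes there, 7 of 11 lay below 0, against 49.97% of all genes. H2-DMa, H2-Eb2, H2-Oa and Ciita lay above 0. In CLP hearts 7 of 9 markers lay above 0, against 47.86% of all genes. The marker median there was 0.22, from Cd163 (-0.10) to Adgre1 (0.92). Of the class II genes 7 of 10 lay above 0 there, and H2-DMb2, H2-Eb2 and H2-Oa below. Without sepsis the marker median was 0.12, from Adgre1 (-0.08) to Cd163 (0.48). In whole heart, fewer cells of a type and less RNA per cell cannot be told apart, and the part of these cells in the MHC values was not tested.

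Dendritic cell markers had medians of -0.04, -0.03 and 0.08. Their extremes were Cd209a (-0.35) and Xcr1 (0.17) without sepsis, Ccr7 (-0.57) and Xcr1 (0.57) in LPS hearts, and Zbtb46 (-0.06) and Ccr7 (0.34) in CLP hearts. B cell markers had medians of -0.01, -0.13 and -0.04 over 5 measured genes, with extremes of -0.24 (Cd79b) and 0.09 (Cd79a), -0.37 (Cd79b) and 0.13 (Ms4a1), and -0.22 (Ms4a1) and 0.08 (Pax5). T and NK cell markers had medians of 0.02, 0.04 and 0.05, with extremes of -0.11 (Klrb1c) and 0.24 (Cd3d), -0.22 (Ncr1) and 0.53 (Nkg7), and -0.17 (Nkg7) and 0.15 (Klrb1c). Endothelial markers had medians of 0.05, 0.16 and 0.003, with Kdr (-0.32) and Vwf (0.17), Cdh5 (-0.26) and Kdr (0.46), and Kdr (-0.44) and Emcn (0.32) at the ends. Heart muscle markers had medians at or near the recurring value, with Actc1 (-0.21) and Ryr2 (0.15), Tnni3 (-0.05) and Tnnt2 (0.62), and Tnnt2 (-0.07) and Ryr2 (-0.01) at the ends. The LPS value of Tnnt2 is the median of a probe on the recurring value and one at 1.28.

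**Figure D4:**
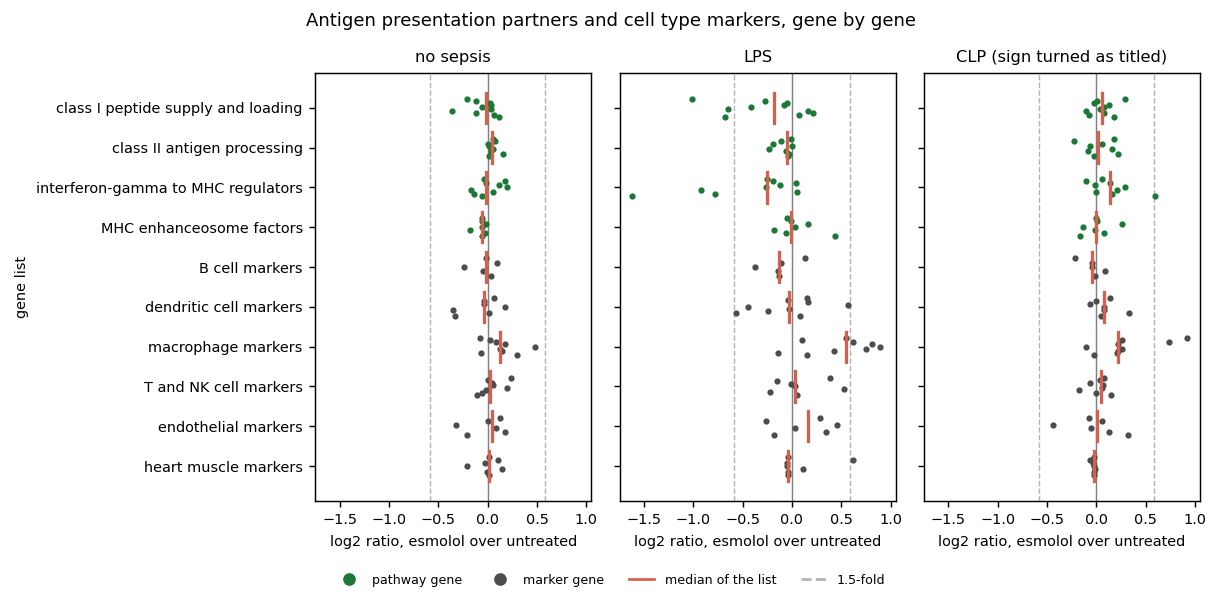
Log2 ratio of esmolol over untreated hearts (horizontal axis) for each measured gene of the 4 pathway lists and 6 cell type marker lists, in the 3 contrasts; points are genes, red bars the median of the list, dashed lines 1.5-fold. In the LPS panel the macrophage markers stand to the right (median 0.54), while class I supply genes and interferon-gamma regulators reach to the left, down to Socs1 at -1.62.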

How the data were processed

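Arrays with 2 colours compared labelled cDNA from 30 mg of heart. Per the labels, the authors merged 4 replicates with dye swaps into 1 value per probe and contrast. The deposited values were read as log2 ratios, centred near 0 as deposited. The number of arrays limits the precision. The sources used here do not state the log base, background correction, normalization or filtering.

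Of 41174 probes, 32664 were named through the platform annotation (45 with several genes and 8465 unnamed here were left out), with symbols checked by gene ID against RefSeq (GRCm38.p6). All 45 members matched. Probes were collapsed by median. All listed members with a value could be named; nonclassical genes and the partner lists were named by their extremes. Counts of members past 1.5-fold and 1.2-fold were read beside the share of all genes past them. The motifs were settled after the start regions had been searched. Members, lists and the direction of CLP were chosen with earlier results of these data known. Alternatives were no recurring value, probe means, centred columns, genes with probes on 1 side of 0, annotation symbols, CLP sign not turned, narrower classes, other folds and other log bases. Collapsing and counting were tested on simulated data. Python 3.11.15, pandas 2.3.3, NumPy 2.4.6 and Matplotlib 3.10.9 were used.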

Additional observations from a re-analysis of the deposited data

Results flagged for a closer look

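Of the 36 members measured in both septic contrasts, 5 had ratios of opposite sign in LPS and CLP hearts that were each larger than the pooled SD between probes of that contrast. They were 13.9% of these members, where 7.74% of 17089 genes met the same condition. Without the recurring value B2m, H2-K1 and H2-Q2 joined them, which made 8 of 29 members (27.6%) beside 7.95% of all genes. The difference between contrasts was not tested, and with the CLP sign not turned none of the 5 would be of opposite sign. The CLP ratio exceeded the LPS ratio by 1.37 on the log2 scale for Nlrc5 (0.17 against -1.20), by 1.02 for H2-Aa (0.50 against -0.52), and by 0.85 for Tapbp (0.26 against -0.59). For H2-T22 (0.15 against -0.44) the distance was 0.59, and for H2-Eb1 (0.21 against -0.28) it was 0.49.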

How the results depend on the processing

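No paired analysis was possible because each contrast is 1 merged column. With the CLP sign not turned, the CLP medians became -0.16 (class I) and -0.066 (class II). Without nonclassical heavy chains the class I median in CLP hearts was 0.26, and for class II chain genes and Cd74 alone the class II median there was 0.21. The other class medians kept their sign under every alternative run and moved by less than the pooled SD between probes. That SD describes probes of 1 gene and does not measure the spread of a class median. The class I median in LPS hearts went from -0.10 to -0.30 without the recurring value. The class II median there went from -0.09 to -0.20 for class II chain genes and Cd74 alone. The count of 5 members lower in LPS hearts at 1.5-fold became 13 at 1.2-fold, 1 at 2-fold, 9 with values read as natural logs and 15 with values read as log10. The count of 0 higher in LPS hearts became 1 at 1.2-fold, 1 with natural logs and 3 with log10. The count of 0 higher in CLP hearts became 7 at 1.2-fold, 3 with natural logs and 14 with log10, and that of 0 lower became 2 with log10. Without sepsis 1 was lower and 1 higher with log10. These shifts follow from the threshold that each reading sets. Without the recurring value 7 genes had no LPS value and 1 no CLP value. Among single genes, B2m in LPS hearts (-0.30 without the recurring value) and H2-Ab1 in CLP hearts (0.21 by the mean of its probes) moved by more than the pooled SD.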
